A study of Mus musculus with 90 samples.

Results

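The 9 genes described here are genes that cells transcribe more when glucocorticoid hormone acts on them: Fkbp5, Zbtb16, Tsc22d3, Sgk1, Map3k6, Errfi1, Pdk4, Cdkn1a and Lcn2. They were found by symbol among 37991 mouse Ensembl gene identifiers of a deposited read count table, with 1 identifier for each symbol. The residents were male C57BL/6J mice that had each held a cage together with a C57BL/6J female. A wire cage was put into the resident's home cage for 5 min, holding either an unfamiliar BALB/cJ male (the intruder groups) or a paper cup (the controls). The residents were killed 30, 60 or 120 min after the wire cage was taken out, and frontal cortex, hypothalamus and amygdala were dissected. This gave 18 groups and 90 libraries from 32 animals, of which 28 gave all 3 regions. Each group had 5 libraries, except 3 for hypothalamus of controls at 30 min and 6 each for frontal cortex of controls and of intruder animals at 120 min. The controls were thus also disturbed by a cage, and no group analysed here was left undisturbed. Each library label names 1 animal, while the series' text speaks of pooled RNA without saying how.

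Glucocorticoids, in mice mainly corticosterone, are released by the adrenal cortex when the brain drives the pituitary, and they rise after stress and with the daily rhythm. In the brain they enter cells and bind the glucocorticoid receptor (gene Nr3c1) and the mineralocorticoid receptor (gene Nr3c2), which are held ready by the Hsp90 chaperone. The bound receptor enters the nucleus, binds DNA at a palindromic element, a short site and its reverse complement separated by 3 bases, and raises or lowers transcription of nearby genes. Fkbp5 encodes a co-chaperone of Hsp90 that lowers the receptor's affinity for hormone, and so sits in a feedback loop. Zbtb16 encodes a zinc finger transcription factor, and Tsc22d3 encodes a leucine zipper protein, also called GILZ, that carries anti-inflammatory effects of the hormone. Sgk1 encodes a kinase that acts on ion channels and transporters. Map3k6 encodes a kinase of stress-activated MAP kinase cascades, and Errfi1 encodes an inhibitor of the EGF receptor. Pdk4 encodes a kinase that switches off pyruvate dehydrogenase, Cdkn1a encodes an inhibitor of cyclin-dependent kinases, and Lcn2 encodes lipocalin, an iron siderophore-binding protein of the acute phase.

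The libraries held 38601039 to 58858458 reads assigned to genes, with a median of 49008631.5 reads. Levels are given in CPM (a gene's reads relative to 1000000 gene reads of its library) after TMM scaling, which corrects library sizes for differences in composition. All 9 genes passed the filter on low counts in each region. Lcn2 was the exception in precision, with 1 to 22 reads per library, whereas the other 8 genes had between 91 reads (lowest for Map3k6) and 10980 reads (highest for Tsc22d3). Markers of the dissected regions were higher in their own region: the summed hypothalamic markers stood at 647 to 1754 CPM in hypothalamus and at no more than 79.9 CPM elsewhere, while the amygdala markers overlapped between amygdala (72.6 to 222 CPM) and hypothalamus (56.7 to 85.3 CPM). The column names of all libraries from 30 min carry the tag ISO and those of all later libraries the tag CERV. What the tags mean is not stated, and the series' text names cervical dislocation for every animal, so differences between 30 min and the later times cannot be told apart from whatever the tags mark.

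Promoter sequence was available for 8 of the 9 genes, in 17 windows, because some genes have several transcript starts. The 250 bases upstream of each start (RefSeq, build GRCm38.p6) were searched on both strands for the glucocorticoid receptor element in the relaxed form GNACA, any 3 bases and TGTNC, which occurred in 127 of 32851 windows of all genes (0.387%) and in 2 of the 17 windows. These 2 windows are printed because they are where the letters of the element occurred, with the match in capitals. The first lies upstream of Map3k6, on the plus strand at chr4:133240568-133240817, and its match begins 181 bases before the transcript start. The other lies upstream of 1 of 6 starts of Sgk1, on the plus strand at chr10:21993640-21993889, and its match begins 188 bases before the start.
Map3k6: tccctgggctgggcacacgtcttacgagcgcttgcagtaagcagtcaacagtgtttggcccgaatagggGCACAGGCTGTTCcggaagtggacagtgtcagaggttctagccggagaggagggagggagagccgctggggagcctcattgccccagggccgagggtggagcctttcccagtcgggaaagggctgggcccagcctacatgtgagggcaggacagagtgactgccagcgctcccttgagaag
Sgk1: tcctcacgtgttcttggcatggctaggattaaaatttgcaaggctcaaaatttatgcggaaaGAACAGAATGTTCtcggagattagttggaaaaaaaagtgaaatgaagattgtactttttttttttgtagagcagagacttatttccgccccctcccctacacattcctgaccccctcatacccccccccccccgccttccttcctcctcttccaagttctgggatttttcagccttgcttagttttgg
The stricter form AGAACA, any 3 bases and TGTTC, on either strand, occurred in 10 windows of all genes (0.0304%), 1 of them the same Sgk1 window, where it matches on both strands and extends the capitals by 1 base at each end. The single site TGTTCT, which overlaps the longer forms, occurred in 16.1% of all windows and in 4 of the 17, of which 3 belonged to Sgk1 and 1 to Tsc22d3. A match is a description of letters and no match says only that these letters are not in that window.

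Levels differed between regions in the controls for most of the genes. In a fit of edgeR's quasi-likelihood test to the control libraries of all regions, with the animal as a block, 7 of the 9 genes differed between amygdala and cortex (adjusted p below 0.05 with Benjamini-Hochberg adjustment over all genes tested), where 66.8% of all genes did. In hypothalamus against cortex 7 of the 9 differed, with 81.9% of all genes, and in amygdala against hypothalamus 6 of the 9, with 71.5% of all genes, so that the shares of the 9 genes lay near those of all genes. Fkbp5 was the only one of the 9 to be higher in amygdala than in both other regions. Its level in controls over all times was 60.6 ± 10.7 CPM (SD, n = 15) in amygdala, 47.8 ± 14.4 CPM (n = 16) in cortex and 43.9 ± 13.4 CPM (n = 13) in hypothalamus. The log2 difference of Fkbp5 was 0.42 ± 0.05 (SE) for amygdala against cortex and 0.54 ± 0.05 for amygdala against hypothalamus, while hypothalamus against cortex gave -0.12 ± 0.05 with an adjusted p of 0.037 by edgeR. The latter call was lost in 6 of 20 alternatives, at an adjusted p by edgeR of 0.132 without the animal block and of 0.055 to 0.077 without control animal 4 or 6 of 120 min, 3 of 30 min, or 2 or 5 of 60 min.

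The cell cycle inhibitor Cdkn1a, the kinase Map3k6 and the transcription factor Zbtb16 were highest in cortex. Cdkn1a stood at 33.1 ± 7.75 CPM in cortex, 19.01 ± 5.01 CPM in amygdala and 15.9 ± 4.63 CPM in hypothalamus, a log2 difference from cortex of -0.78 ± 0.09 (SE) in amygdala and -1.09 ± 0.10 in hypothalamus. Zbtb16 stood at 42.9 ± 15.3 CPM in cortex, 21.1 ± 9.99 CPM in amygdala and 23.8 ± 14.2 CPM in hypothalamus. These SDs span the 3 times, and amygdala and hypothalamus did not pass the test against each other. Map3k6 stood at 5.57 ± 1.70 CPM in cortex against 3.44 ± 1.02 CPM in amygdala and 3.05 ± 0.988 CPM in hypothalamus.

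Tsc22d3 was highest in hypothalamus, with 148 ± 19.8 CPM in hypothalamus, 130 ± 17.9 CPM in cortex and 102 ± 15.9 CPM in amygdala, and all 3 pairs of regions passed the test. Sgk1 was lower in amygdala (79.0 ± 22.7 CPM) than in cortex (96.7 ± 20.5 CPM) and hypothalamus (104 ± 32.8 CPM), and the latter pair did not differ beyond their spread. Errfi1 differed by small amounts in each pair of regions, with 35.7 ± 3.24 CPM in cortex, 32.8 ± 3.48 CPM in hypothalamus and 29.3 ± 3.63 CPM in amygdala. Pdk4, at 10.6 ± 1.28, 11.1 ± 0.893 and 10.98 ± 2.32 CPM in amygdala, cortex and hypothalamus, passed the test in no pair. Lcn2 lay at 0.178 ± 0.085, 0.203 ± 0.064 and 0.120 ± 0.075 CPM in the same order of regions, and it passed the test only in hypothalamus against cortex, with a log2 difference of -0.76 ± 0.26 and an adjusted p of 0.0078 by edgeR. For Lcn2 in amygdala against hypothalamus the adjusted p was 0.054 by edgeR, and it was below 0.05 in 7 of 19 alternatives, among them limma's voom (0.0465), the fit without the animal block (0.0497) and the fits without control animal 1, 2 or 3 of 120 min, 1 of 30 min or 2 of 60 min.

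**Figure D1:**
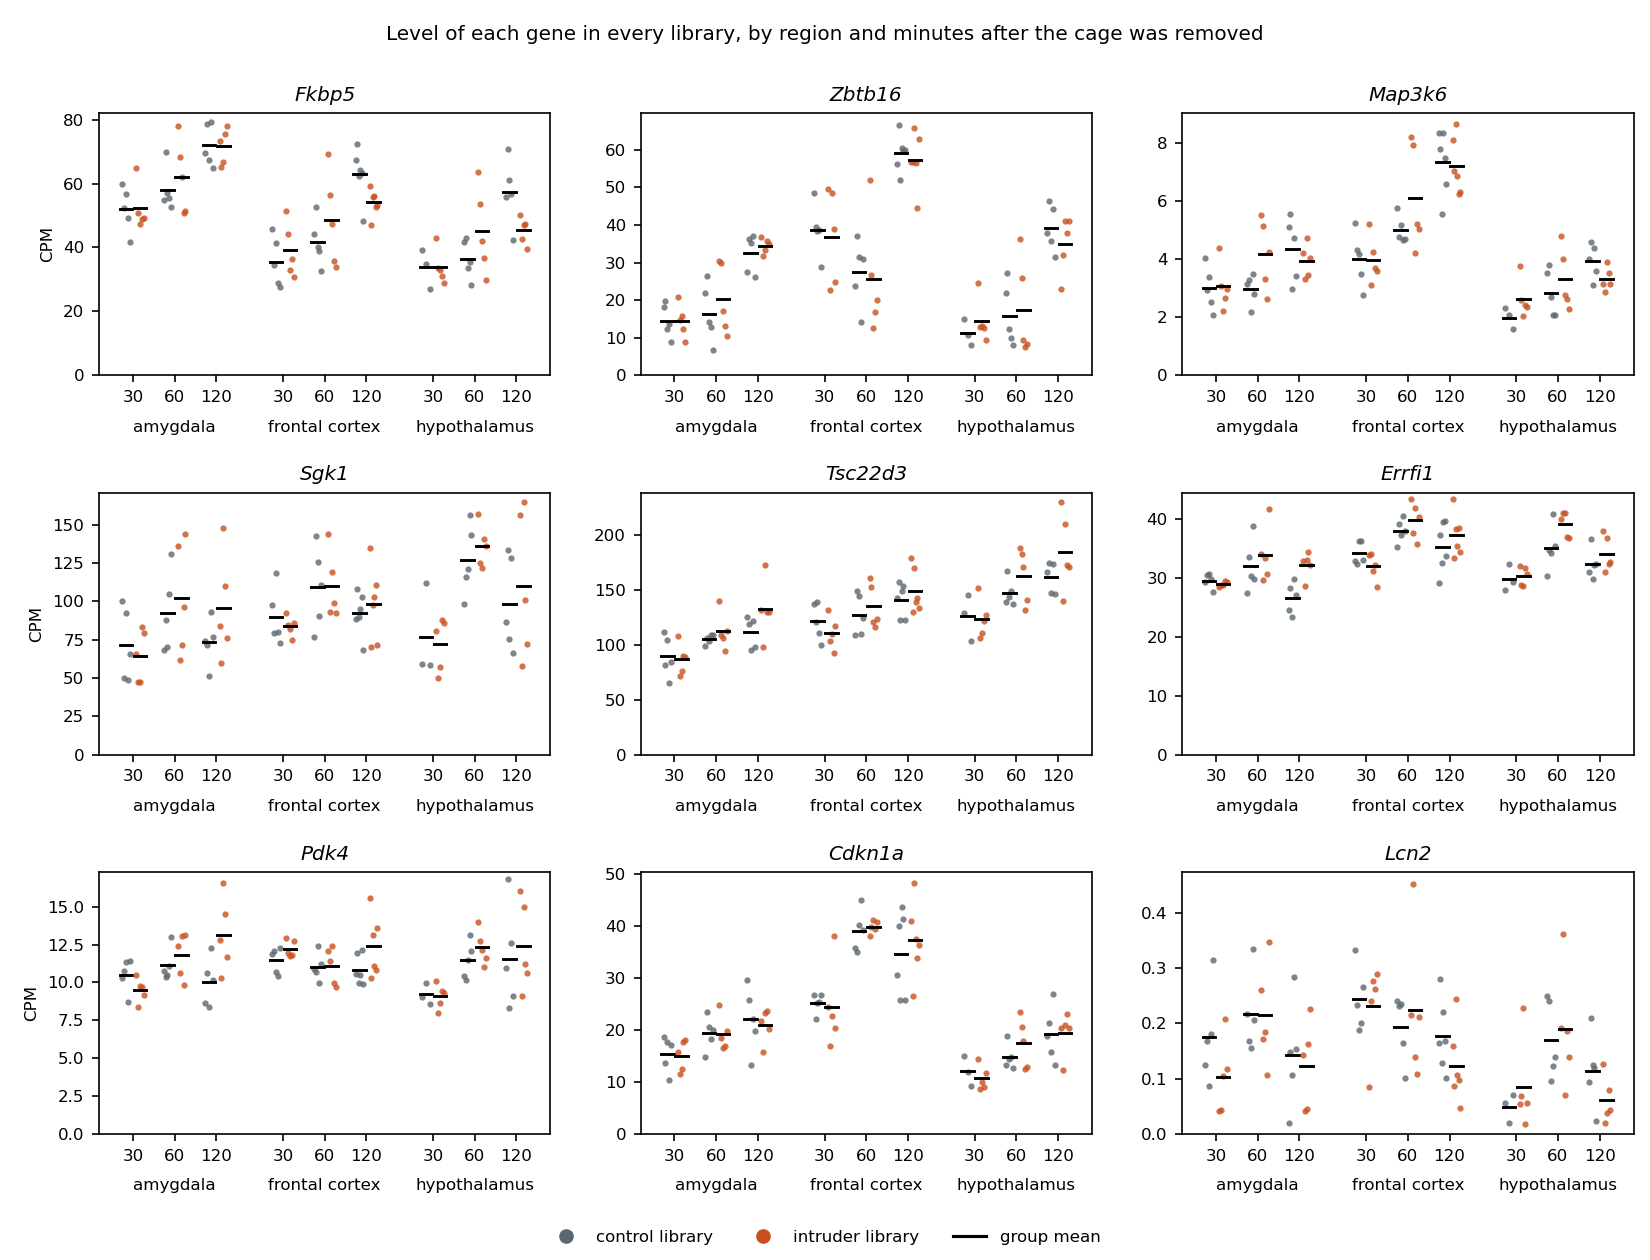
CPM of each gene (vertical axis, from 0) in every library against minutes after the wire cage was removed, by region; points are libraries, grey for controls and orange for intruder animals, and black bars are group means. Zbtb16 is highest at 120 min in each region, with control means from 32.5 to 59.2 CPM, and the control and intruder points overlap in every group.

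The study's main comparison sets residents that met the intruder against residents that met the paper cup, at each time and in each region. None of the 9 genes passed the test in any of the 9 comparisons. Of 81 tests by edgeR's quasi-likelihood method, 0 had an adjusted p below 0.05 and 6 had an unadjusted p below 0.05, which is 7.41% of the tests, where 6.09% of the tests of all genes had one. DESeq2 called 1 of the 81, Pdk4 in amygdala at 120 min, where it called 409 of all genes, and limma's voom method called 0. The share of all genes called by edgeR was 0% in 7 of the 9 comparisons. The other two were those of 120 min in amygdala, with 0.538%, and in hypothalamus, with 0.192%. In all 9 comparisons the values of control and intruder libraries overlapped for all 9 genes. Over all genes, groups without overlap made up 0.868, 0.37 and 3.22% of genes in amygdala at 30, 60 and 120 min, 1.05, 0.363 and 0.246% in cortex, and 3.24, 0.498 and 1.28% in hypothalamus.

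The intervals say how large a difference could have been missed. Without Lcn2, the log2 fold changes lay between -0.34 and 0.49 with SEs from 0.07 to 0.44. Of those 72 tests, 43 had a 95% interval wholly within 0.5 log2 units of 0, and 71 had one within 1 log2 unit. The widest bound belonged to Zbtb16 in hypothalamus at 30 min, where only 3 controls were measured, and reached 1.28. For Lcn2, with its few reads, the SEs ran from 0.35 to 0.74, and the 95% intervals reached down to -2.13 and up to 2.30.

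The metabolic kinase Pdk4 in amygdala at 120 min gave the smallest unadjusted p of the 81. The 5 controls had 8.39, 8.63, 10.2, 10.6 and 12.3 CPM, and the 5 intruder libraries had 10.3, 11.7, 12.8, 14.5 and 16.5 CPM. Most intruder values thus lay above most controls, with overlap between 10.3 and 12.3 CPM. The log2 fold change was 0.39 ± 0.12 (SE, 95% interval 0.15 to 0.63), with an unadjusted p of 0.00224 and an adjusted p of 0.102 by edgeR. With DESeq2 the adjusted p was 0.0415, and without control replicate 4 edgeR gave 0.0493, so the call depends on the tool and on that library.

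Errfi1 was close behind in the same comparison. Its controls had 23.3, 24.5, 27.0, 28.3 and 29.8 CPM and its intruder libraries 28.5, 32.1, 32.7, 33.0 and 34.3 CPM, so 4 of the 5 intruder libraries lay above every control. The log2 fold change was 0.27 ± 0.08 (interval 0.10 to 0.44), with an unadjusted p of 0.00256 and an adjusted p of 0.111 by edgeR. In those 2 groups the summed oligodendrocyte markers ran from 2509.5 to 5347 CPM (median 3898) in controls and from 3253 to 6797 CPM (median 5523) in intruder libraries, and the endothelial markers from 155 to 265 CPM and from 141 to 206 CPM. Their part in these values was not tested. Sgk1, with a log2 fold change of 0.38 ± 0.26, and Tsc22d3, with 0.24 ± 0.14, were also above 0 in amygdala at 120 min, but with intervals that include 0.

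Fkbp5 did not show one direction. At 60 min its log2 fold change was 0.11 in amygdala, 0.23 in cortex and 0.30 in hypothalamus, and at 120 min it was -0.01, -0.22 and -0.34 in the same order of regions. The value furthest from 0 came from hypothalamus at 120 min, where the controls had 42.3, 55.9, 56.9, 61.2 and 70.8 CPM and the intruder libraries 39.6, 42.5, 47.1, 47.4 and 50.3 CPM. All intruder values were thus below 4 of the 5 controls, and the difference of -0.34 ± 0.16 (interval -0.67 to -0.01) had an unadjusted p of 0.0456 and an adjusted p of 0.428 by edgeR. In the same libraries the summed endothelial markers were 198 to 217 CPM in controls and 114 to 179 CPM in intruder animals, and the mural markers 138 to 173 CPM and 92.7 to 115 CPM, without overlap in either list. Whether these go with the Fkbp5 values was not tested. In bulk tissue, fewer cells of a type and less RNA per cell cannot be told apart.

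The other 3 tests with an unadjusted p below 0.05 were Map3k6 in amygdala at 60 min, Errfi1 in hypothalamus at 60 min and Pdk4 in cortex at 120 min. Map3k6 had 2.18, 2.80, 3.15, 3.29 and 3.47 CPM in controls and 2.63, 3.32, 4.24, 5.14 and 5.52 CPM in intruder libraries, of which the upper 3 lay above every control. Its log2 fold change was 0.49 ± 0.21, with an adjusted p of 0.67 by edgeR. The difference was 0.15 ± 0.07 for Errfi1 in hypothalamus (adjusted p of 1) and 0.20 ± 0.08 for Pdk4 in cortex (adjusted p of 0.864 by edgeR). At 60 min in hypothalamus all 9 log2 fold changes were above 0, with a median of 0.15, where 48.9% of all genes were above 0. The sign turned in 6 of 18 alternatives for Zbtb16, in 3 of 17 for Lcn2 and in 1 of 18 each for Cdkn1a, Fkbp5, Map3k6, Sgk1 and Tsc22d3. At 60 min the counts above 0 were 7 of 9 in amygdala and 8 of 9 in cortex, where 51.2% and 48.1% of all genes were above 0. At 30 min they were 2 of 9 in amygdala (46.4% of all genes), 2 of 9 in cortex (50.2%) and 5 of 9 in hypothalamus (48.5%), and at 120 min 5 of 9 in each region. These directions share their libraries and genes that vary together between animals, so they are not 9 separate observations.

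Whether the difference between intruder and control changed with time or region was tested directly. The interaction with time was called by edgeR for 0 of the 9 genes in each region, with 0%, 0% and 0.0113% of all genes called in amygdala, cortex and hypothalamus. Unadjusted p-values below 0.05 were found for Pdk4 (0.0109) and Errfi1 (0.0465) in amygdala, for none in cortex and for Fkbp5 (0.0334) in hypothalamus, and DESeq2 and limma's voom called 0 as well. The interaction with region was called for 0 of the 9 at 30, 60 and 120 min by edgeR and by limma's voom, with 0% of all genes and no unadjusted p below 0.05 among the 9.

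**Figure D2:**
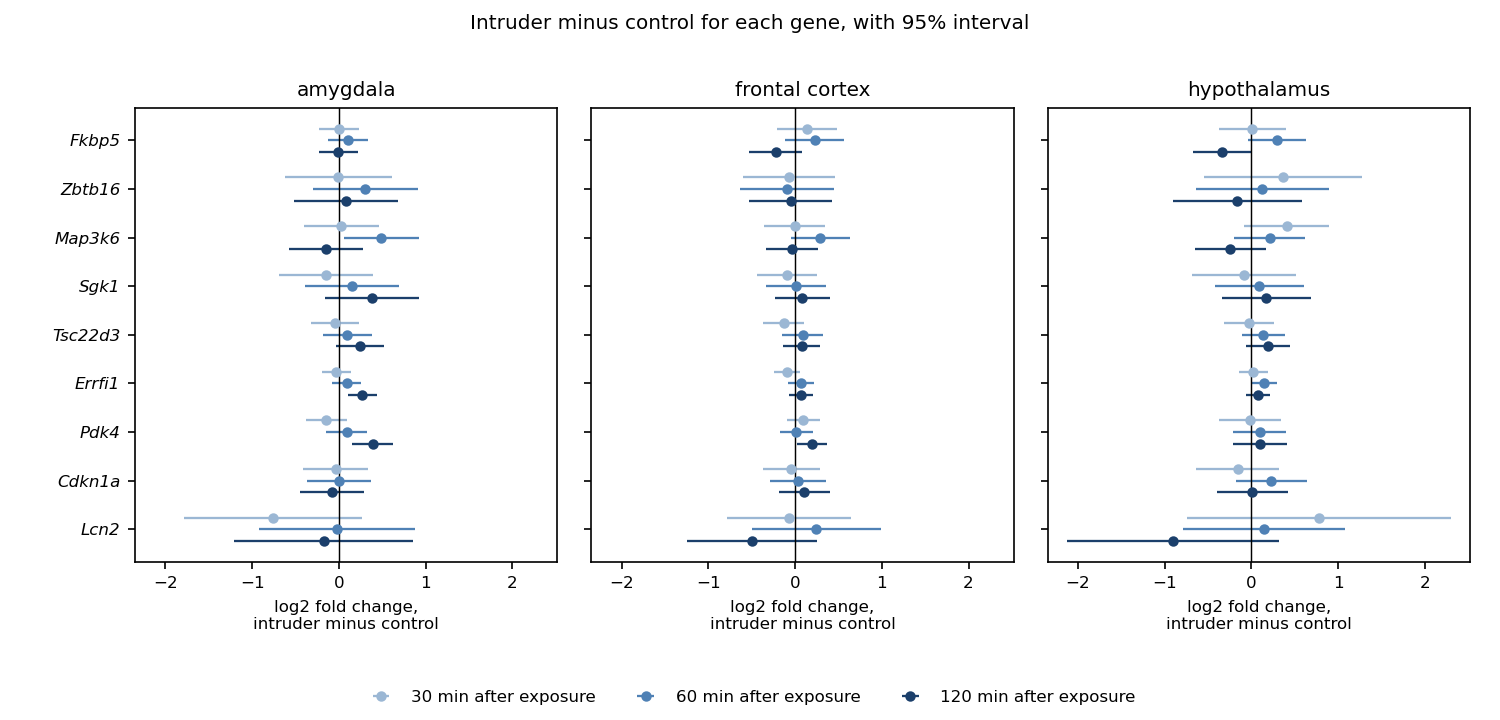
Log2 fold change of intruder against control libraries (horizontal axis) for each gene in each region, from edgeR; points are estimates, bars their 95% intervals and shades the 3 times. Most intervals cross 0, and those of Pdk4 (0.39) and Errfi1 (0.27) in amygdala at 120 min lie to the right of it.

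The times after the cage was removed were compared within the controls and within the intruder libraries, which come from different animals. The group mean of Fkbp5, Zbtb16 and Tsc22d3 was highest at 120 min in all 6 sets (3 regions in controls and in intruder animals), as was that of 98 of 16635 genes (0.589%). For Fkbp5 in hypothalamus of intruder animals this rests on 45.37 CPM at 120 min against 45.11 CPM at 60 min, and the sign of that difference turned in 6 of 17 alternatives, each with 1 library left out. The group mean of Sgk1 and Errfi1 was highest at 60 min in all 6 sets, as was that of 40 of 16635 genes (0.24%). The sign of the difference between 120 and 60 min turned in amygdala of intruder animals in 3 of 18 alternatives for Sgk1 and 1 of 18 for Errfi1, and in cortex of intruder animals in 1 of 19 for Sgk1. Map3k6 was highest at 120 min in 5 of the 6 sets, Pdk4 and Cdkn1a in 4, and Lcn2 in 0. The sign of the difference between 120 and 60 min turned in 5 of 17 alternatives for Map3k6 in hypothalamus of intruder animals (3.31 against 3.29 CPM). It also turned in 5 of 17 for Pdk4 in hypothalamus, both in controls (11.58 against 11.45 CPM) and in intruder animals (12.41 against 12.31 CPM). The 3 regions of a set come from the same animals, so these 6 sets are not 6 separate observations, and the orders that involve 30 min cannot be told apart from the ISO and CERV tags.

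In controls, the test over the 3 times called 4 of the 9 genes in cortex, namely Fkbp5, Zbtb16, Map3k6 and Cdkn1a, with 33.4% of all genes called there. It called 0 of the 9 in amygdala (0.232% of all genes) and 0 in hypothalamus (0.181%) by edgeR. In those regions 5 and 7 of the 9 had an unadjusted p below 0.05, where 10.9% and 9.88% of all genes had one, and limma's voom called 0 in both. DESeq2 called 2 of the 9 in amygdala (Fkbp5 and Zbtb16), among 196 of all genes, and 3 in hypothalamus (Fkbp5, Zbtb16 and Map3k6), among 162 of all genes. In intruder libraries the test called 4 of the 9 in amygdala (12.9% of all genes), namely Fkbp5, Tsc22d3, Pdk4 and Zbtb16. It called 5 in cortex (46.1%), namely Tsc22d3, Errfi1, Zbtb16, Map3k6 and Cdkn1a, and 3 in hypothalamus (1.49%), namely Tsc22d3, Errfi1 and Cdkn1a. In amygdala all 4 calls were lost when the library index was a term of the fit, where calls over all genes went from 2225 to 2, with adjusted p-values by edgeR of 0.505 for Fkbp5, 0.663 for Pdk4, 0.446 for Tsc22d3 and 0.473 for Zbtb16, and the calls of Fkbp5 and Pdk4 were lost without intruder replicate 2 or 5 of 30 min. Fkbp5 was also lost without replicate 3 or 4 of 30 min or 6 of 120 min, and Pdk4 without replicate 3 of 120 min. In hypothalamus the call of Cdkn1a (adjusted p of 0.0445 by edgeR) was lost in 15 of 21 alternatives, with limma's voom (0.060), upper quartile scaling (0.0538), no filter on low counts (0.0514), the replicate block (0.087) and 11 of the libraries left out. That of Tsc22d3 was lost without any 1 of intruder replicates 2, 3, 4 and 5 of 30 min or without replicate 3 of 120 min, which left Errfi1 alone. In cortex of intruder animals Fkbp5 had an adjusted p of 0.0568 by edgeR and was called in 7 of 22 alternatives.

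The comparison of 120 with 60 min lies within 1 tag. In no region and condition, however, did libraries of 60 and 120 min share a first library index in their column names. The index could not be fitted beside time for controls of cortex or for hypothalamus, so time and index cannot be told apart there. In hypothalamus the controls of Zbtb16 had 8.09, 10.7 and 14.8 CPM at 30 min, 7.95, 9.88, 12.3, 21.996 and 27.2 CPM at 60 min, and 31.5, 35.8, 37.7, 44.3 and 46.5 CPM at 120 min, so that every value of 120 min was above every earlier one. In amygdala its controls had 6.72, 12.8, 14.3, 21.8 and 26.3 CPM at 60 min and 26.3, 27.4, 35.2, 36.3 and 37.2 CPM at 120 min, and the groups met at 26.3 CPM. In cortex its controls had 14.1, 23.8, 30.8, 31.4 and 37.2 CPM at 60 min, and at 120 min a lowest value of 52.1, a median of 59.8 and a highest value of 66.7 CPM, again without overlap. In intruder animals the highest value at 60 min and the lowest at 120 min were 51.9 and 44.7 CPM in cortex and 36.2 and 23.0 CPM in hypothalamus, so these groups overlapped, and 30.4 and 31.7 CPM in amygdala, where they did not (0.984% of all genes in this direction).

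The log2 difference of Zbtb16 between 120 and 60 min in controls was 1.11 ± 0.26 (SE) in cortex, with an adjusted p of 0.00925 by edgeR. In that comparison 15.9% of all genes were called, and time cannot be told apart from the library index. With 1 library left out, the 2713 genes called there became 428 (without control replicate 5 of 60 min) to 3235, and the count also fell more than 1.5 times without control replicate 1 of 60 min or 2 of 120 min. It was 0.99 ± 0.30 in amygdala (adjusted p of 0.272, with 0.0232% of all genes called) and 1.30 ± 0.37 in hypothalamus (adjusted p of 0.307, with 0.0396% called), and these did not pass the test. Groups without overlap in which 120 min was the higher were found for 4.0% of all genes in cortex and 1.3% in hypothalamus. The intruder libraries come from other animals, and there the difference of Zbtb16 was 1.16 ± 0.26 in cortex (adjusted p of 0.0038, with 22.9% of all genes called), 0.77 ± 0.30 in amygdala (adjusted p of 0.335, 0.0695% called) and 1.01 ± 0.37 in hypothalamus (adjusted p of 0.287, 0.441% called). In these hypothalamus libraries the endothelial sums ran from 197 to 255 CPM at 60 min and from 114 to 179 CPM at 120 min. The mural sums ran from 137 to 187 CPM and from 92.7 to 115 CPM. Their part was not tested. With the library index as a term the cortex value was 1.62 with an adjusted p of 0.0527 by edgeR, and the call was lost, as were all of the 3914 calls over all genes. With 1 library left out those calls ran from 1595 (without intruder replicate 4 of 60 min) to 5717, and fell more than 1.5 times also without intruder replicate 2 or 5 of 60 min.

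Fkbp5 was higher at 120 than at 60 min in the controls of cortex, by 0.60 ± 0.16 with an adjusted p of 0.0155 by edgeR. Time and library index cannot be told apart in this comparison. Its 5 cortex controls at 60 min had 32.7, 38.7, 40.1, 44.1 and 52.6 CPM, and the 6 at 120 min a lowest value of 48.3, a median of 63.8 and a highest value of 72.5 CPM. The groups overlapped through 1 library on each side. In hypothalamus the control mean of Fkbp5 was 36.4 ± 6.05 CPM (SD, n = 5) at 60 min and 57.4 ± 10.3 CPM (n = 5) at 120 min, a difference of 0.65 ± 0.16 (SE) with an adjusted p of 0.208 by edgeR and of 0.027 by DESeq2. In amygdala it was 57.9 ± 6.80 CPM and 72.0 ± 6.66 CPM, a difference of 0.32 ± 0.11 that did not pass the test. In intruder libraries Fkbp5 passed the test of 120 against 60 min in no region.

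Map3k6 was the third gene called in the controls of cortex, at 0.56 ± 0.16 with an adjusted p of 0.0199 by edgeR, with the same limit from the library index. Its controls had 4.65, 4.70, 4.77, 5.19 and 5.75 CPM at 60 min and ran from 5.56 over a median of 7.63 to 8.35 CPM at 120 min. Without cortex control replicate 5 of 60 min only Zbtb16 of these 3 was called, at an adjusted p of 0.0474, while Fkbp5 had 0.0571 and Map3k6 0.0697 by edgeR. Map3k6 also lost its call without control replicate 2 of 120 min, at an adjusted p of 0.0509 by edgeR. In the cortex controls the summed oligodendrocyte markers ran from 4566 to 7110 CPM (median 5990.5) at 60 min and from 3819 to 5932 CPM (median 4655) at 120 min. The astrocyte markers ran from 3424 to 4375 CPM (median 3633) and from 4002 to 4632 CPM (median 4522), and the markers of cortex itself from 550.5 to 816 CPM (median 679) and from 684 to 867 CPM (median 819). Their part in the cortex differences was not tested.

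Sgk1 and Errfi1, with their highest means at 60 min, had lower means at 120 than at 60 min in all 6 sets. Sgk1 in hypothalamus of intruder animals had 49.6, 56.9, 80.5, 85.7 and 87.5 CPM at 30 min, 122, 125, 136, 141 and 157 CPM at 60 min, and 57.6, 71.9, 101, 157 and 165 CPM at 120 min. The values of 60 min lay close together and above all of 30 min, and those of 120 min spread over both. The difference of 60 against 30 min was 0.93 ± 0.25, with an adjusted p of 0.241 by edgeR, and no test of Sgk1 between times passed. Errfi1 in hypothalamus of intruder animals had 28.5, 28.7, 30.5, 31.6 and 31.999 CPM at 30 min and 36.6, 36.9, 40.0, 40.9 and 41.0 CPM at 60 min. These groups did not overlap, which was so for 1.41% of all genes in this direction. Errfi1 rose by 0.38 ± 0.07 with an adjusted p of 0.0178 by edgeR, where 0.0792% of all genes were called. The astrocyte sums of the same libraries were 2416 to 2546 CPM at 30 min and 2627 to 2729 CPM at 60 min, also without overlap. Over the 90 libraries, within groups, r of Errfi1 with the astrocyte sums was -0.008, and their part was not tested. The comparison crosses the tags.

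Tsc22d3, Pdk4 and Cdkn1a each passed the test between 30 min and a later time in some sets, Pdk4 only in amygdala of intruder animals. Elsewhere the Pdk4 means went both ways, such as 11.46 CPM at 30 min and 10.82 CPM at 120 min in cortex of controls. In hypothalamus of intruder animals Tsc22d3 had 106, 110, 121, 127 and 151 CPM at 30 min and 140, 171, 173, 210 and 230 CPM at 120 min, a rise of 0.60 ± 0.12 that edgeR called with 1.93% of all genes. In amygdala of intruder animals it rose from 71.3, 75.6, 88.8, 89.99 and 108 CPM to 97.95, 130, 130, 131 and 172 CPM, by 0.61 ± 0.14, with 15% of all genes called, and Pdk4 rose there by 0.47 ± 0.12. Cdkn1a in cortex of controls had 22.2, 25.3, 25.5, 26.7 and 26.8 CPM at 30 min and 35.0, 35.8, 39.3, 40.2 and 45.1 CPM at 60 min. That rise of 0.61 ± 0.16 was called along with 35.4% of all genes, and the groups did not overlap, as for 12.4% of all genes in this direction. Marker lists separated the same control groups of cortex without overlap. From 30 to 60 min the oligodendrocyte sums went from 3115 to 3995 CPM to 4566 to 7110 CPM and the blood sums from 74.9 to 108 CPM to 119.8 to 148 CPM. The astrocyte sums went the other way, from 4584 to 5199.8 CPM at 30 min to 3424 to 4375 CPM at 60 min, as did the mural sums (231.8 to 271 CPM, then 159.5 to 217 CPM) and those of the cortex markers (872 to 1006 CPM, then 550.5 to 816 CPM). In the intruder libraries of hypothalamus, 30 and 120 min were also separated by the endothelial sums (216 to 235 CPM, then 114 to 179 CPM), the mural sums (154 to 164 CPM, then 92.7 to 115 CPM) and the astrocyte sums (2416 to 2546 CPM, then 2609 to 2935 CPM). In those of amygdala they were separated by the astrocyte sums (3320.0 to 3563 CPM, then 3931 to 4833 CPM), the endothelial sums (242 to 296 CPM, then 141 to 206 CPM) and the cortex markers (292 to 328 CPM, then 330.4 to 361 CPM). Over the 90 libraries, within groups, r with the astrocyte sums was 0.34 for Pdk4, 0.22 for Tsc22d3 and 0.13 for Cdkn1a. The part of these lists in the rises was not tested, and all of these differences cross the tags.

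**Figure D3:**
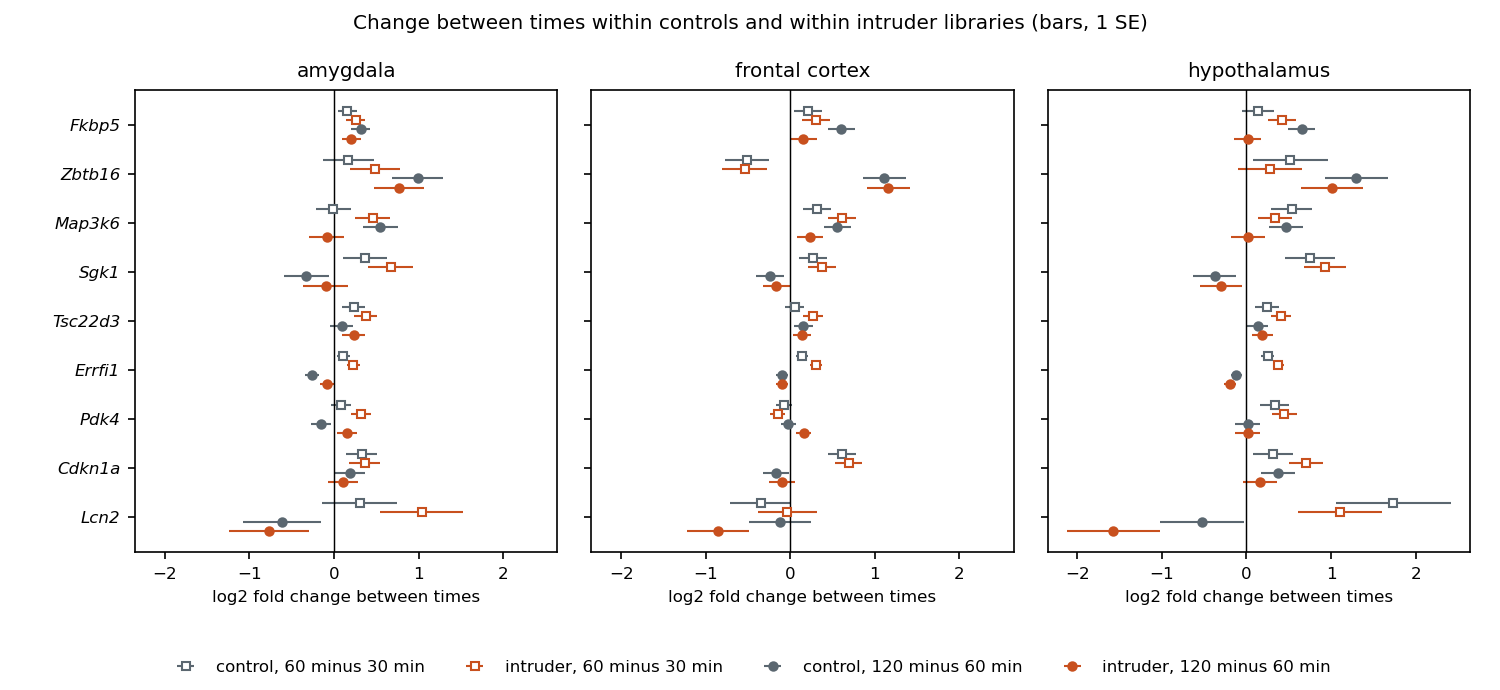
Log2 fold change between times (horizontal axis) for each gene in each region, from edgeR; open squares give 60 minus 30 min and filled circles 120 minus 60 min, in grey for controls and orange for intruder animals, with bars of 1 SE. The Zbtb16 circles lie from 0.77 to 1.30 in all 3 regions and in both conditions.

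Libraries of 1 group differed in these genes by amounts that varied from gene to gene, and for some of the genes the same animals were high or low in several regions. After the group mean was taken away, the SD between animals on the log2 scale was 0.49, 0.44 and 0.61 for Zbtb16 in amygdala, cortex and hypothalamus, 0.44, 0.29 and 0.43 for Sgk1, and 0.18, 0.28 and 0.27 for Fkbp5. Errfi1 had the narrowest spread of the well-measured genes, with 0.13, 0.12 and 0.11. The intruder animals of 60 min are an example. Their Fkbp5 levels, listed for animals 1 to 5, were 78.1, 68.3, 62.0, 50.6 and 51.5 CPM in amygdala, 69.3, 56.5, 47.4, 35.7 and 33.8 CPM in cortex, and 63.5, 53.6, 41.9, 36.7 and 29.8 CPM in hypothalamus. The same 2 animals were the highest in each region and the same 2 the lowest. For Zbtb16 the values of the same animals were 30.4, 30.0, 17.0, 13.0 and 10.4 CPM in amygdala and 36.2, 25.8, 9.49, 7.37 and 8.31 CPM in hypothalamus, and in cortex they were 51.9, 26.7, 12.7, 16.8 and 19.99 CPM, with the same 2 animals on top in each region.

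Over all times and conditions, this likeness between regions was measured over animals as a Pearson correlation of the deviations from the group mean, with animals permuted within their time and condition group (two-sided). Each p was adjusted by the Benjamini-Hochberg method over 49905 correlations, those of 16635 genes in 3 pairs of regions. Of the 27 correlations of the 9 genes, 12 had an adjusted p below 0.05 and 22 an unadjusted p below 0.05. They fell on 3 of the 9 genes in amygdala and cortex, where 1.0% of all genes were called, on 5 in amygdala and hypothalamus (5.95% of all genes) and on 4 in cortex and hypothalamus (1.11% of all genes).

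Fkbp5, Tsc22d3 and Map3k6 were called in all 3 pairs of regions. For Fkbp5, r was 0.89 in amygdala and cortex (n = 30 animals, Spearman's rho 0.87), 0.78 in amygdala and hypothalamus (n = 28, rho 0.76) and 0.90 in cortex and hypothalamus (n = 28, rho 0.89). The adjusted permutation p of r was 0.00295, 0.0118 and 0.00295 in the same order, and that of rho 0.0033, 0.0196 and 0.0033. An unadjusted p of 1e-05, as found for both r of Fkbp5 with cortex, is the smallest that the permutations can give. By size of r, Fkbp5 stood in place 11, 180 and 9 of the 16635 genes, whose median r was 0.07, 0.17 and 0.12. Without the 2 animals farthest from the median, r of Fkbp5 was 0.85, 0.69 and 0.86. In 24 of 30, 22 of 28 and 24 of 28 animals the 2 regions lay on the same side of their group means. Among controls alone r was 0.86, 0.69 and 0.87, and among intruder animals alone 0.91, 0.84 and 0.93, and with these smaller numbers of animals no adjusted permutation p was below 0.05.

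Tsc22d3 had r of 0.63, 0.76 and 0.81 in the same order of region pairs, with adjusted permutation p-values of 0.0267, 0.0134 and 0.00295, and Map3k6 had 0.71, 0.68 and 0.72 with 0.0237, 0.0334 and 0.0182. Zbtb16 was called in amygdala and hypothalamus, with r of 0.88 (rho 0.82, adjusted permutation p 0.00295), and had r of 0.50 in amygdala and cortex (0.356) and 0.68 in cortex and hypothalamus (0.101). Sgk1 likewise was called in amygdala and hypothalamus only, with r of 0.69 (adjusted permutation p 0.0149), against 0.31 in amygdala and cortex (0.549) and 0.62 in cortex and hypothalamus (0.0862). Errfi1 was called in cortex and hypothalamus, with r of 0.62 and an adjusted permutation p of 0.0388, which for rho was 0.0679. For Tsc22d3 in amygdala and cortex the p of rho, 0.0791, also missed the threshold.

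Pdk4, Cdkn1a and Lcn2 were called in no pair of regions, with r from 0.27 to 0.58 for Pdk4, from 0.33 to 0.46 for Cdkn1a and from 0.00 to 0.57 for Lcn2. The 24 other glucocorticoid-responsive genes had a median r of 0.50, 0.52 and 0.56 in the 3 pairs of regions, and the 12 genes of the receptor, chaperones and steroid handling 0.31, 0.40 and 0.39. What the libraries of 1 animal share besides the animal, such as the hour of day or the day of dissection, is not given in the labels used here.

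**Figure D4:**
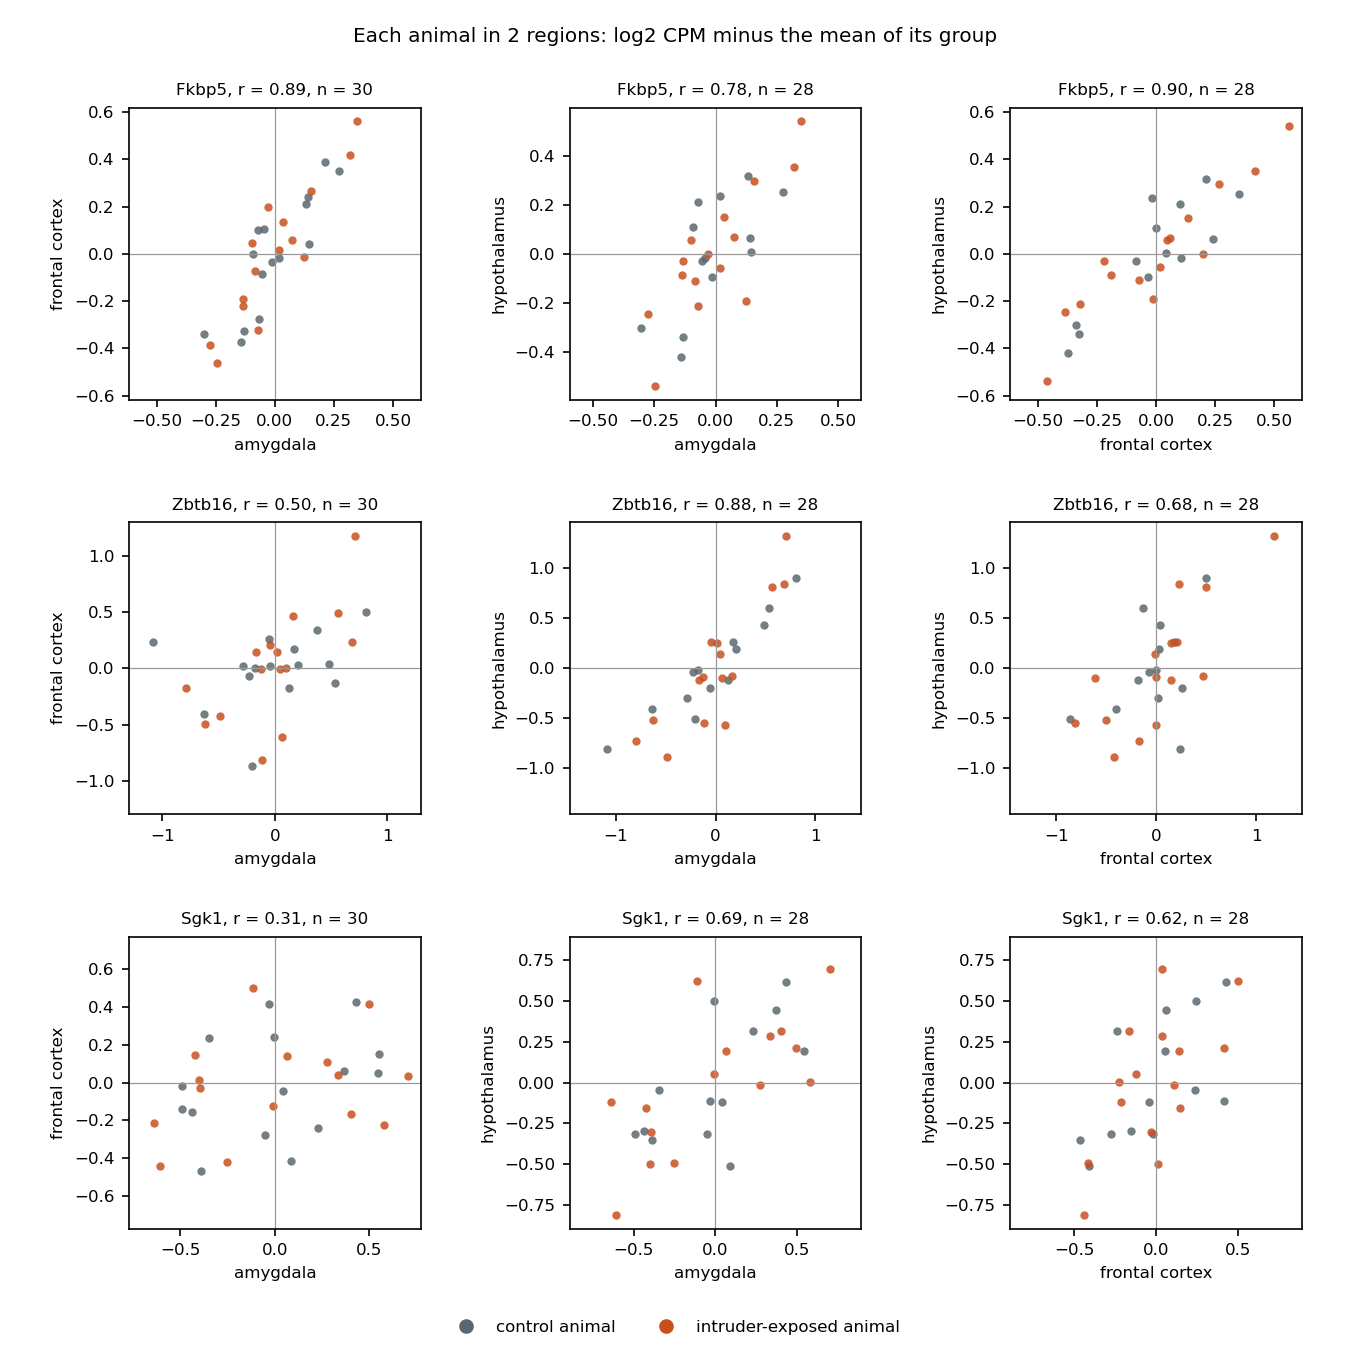
Each point is 1 animal, plotted by its log2 CPM minus the mean of its time and condition group in one region (horizontal axis) and in another (vertical axis), for Fkbp5, Zbtb16 and Sgk1; grey points are controls and orange points intruder animals. Fkbp5 follows the diagonal in all 3 pairs of regions (r from 0.78 to 0.90), whereas Sgk1 scatters in amygdala against cortex (r = 0.31).

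Across libraries, the genes fell into combinations that varied together to different degrees. The values that follow are Pearson correlations over the 90 libraries of log2 CPM minus the group mean. They are descriptions without a test, since libraries of 1 animal are not independent. Fkbp5, Zbtb16 and Map3k6 varied together, with r of 0.66 for Fkbp5 and Zbtb16, 0.69 for Fkbp5 and Map3k6, and 0.68 for Zbtb16 and Map3k6. In the same order these were 0.81, 0.81 and 0.91 in hypothalamus, 0.48, 0.62 and 0.69 in cortex and 0.75, 0.71 and 0.46 in amygdala. Sgk1 varied with Tsc22d3 (0.72), Pdk4 (0.68) and Errfi1 (0.59), and Pdk4 with Errfi1 (0.53). Between Zbtb16 and Sgk1 r was -0.06 (-0.32 in amygdala, 0.32 in cortex and -0.03 in hypothalamus), between Zbtb16 and Errfi1 -0.01 and between Zbtb16 and Pdk4 0.07. Fkbp5 and Map3k6 had higher values with the same 3 genes: Fkbp5 had 0.28 with Sgk1, 0.31 with Pdk4 and 0.23 with Errfi1, and Map3k6 had 0.29, 0.30 and 0.19. In cortex r of Fkbp5 with Sgk1 was 0.55, above that of Fkbp5 with Zbtb16. Tsc22d3 varied with genes of both combinations, with 0.61 for Fkbp5 and 0.70 for Map3k6.

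Cdkn1a varied with Tsc22d3 in amygdala (0.78) and hypothalamus (0.81) but little in cortex (0.19). Lcn2 had values from 0.13 to 0.27 with the other 8 genes, at its few reads per library. The genes most like each of the 9 over all 16634 other genes were, for Fkbp5, Rin2 (0.81), Plin4 (0.77) and Mertk (0.74). For Sgk1 they were Arrdc2 (0.88), Plekhf1 (0.83) and Arl4d (0.80), and for Tsc22d3 they were Klf15 (0.83), Rin2 (0.79) and Arrdc2 (0.76). The single most alike gene was Mertk for Zbtb16 (0.75), Xdh for Map3k6 (0.77), Ddit4 for both Pdk4 (0.68) and Errfi1 (0.69), Irak2 for Cdkn1a (0.62) and Irs3 for Lcn2 (0.50). Among the 100 genes most like Tsc22d3, out of 16634, stood 18 of the 24 other glucocorticoid-responsive genes listed. The count was 11 for Map3k6, 10 each for Pdk4 and Cdkn1a, 8 for Fkbp5 and 7 for Sgk1. It was 6 for Errfi1, 3 for Zbtb16 and 2 for Lcn2. The list was chosen with earlier results of these data known, so these counts are only a description.

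**Figure D5:**
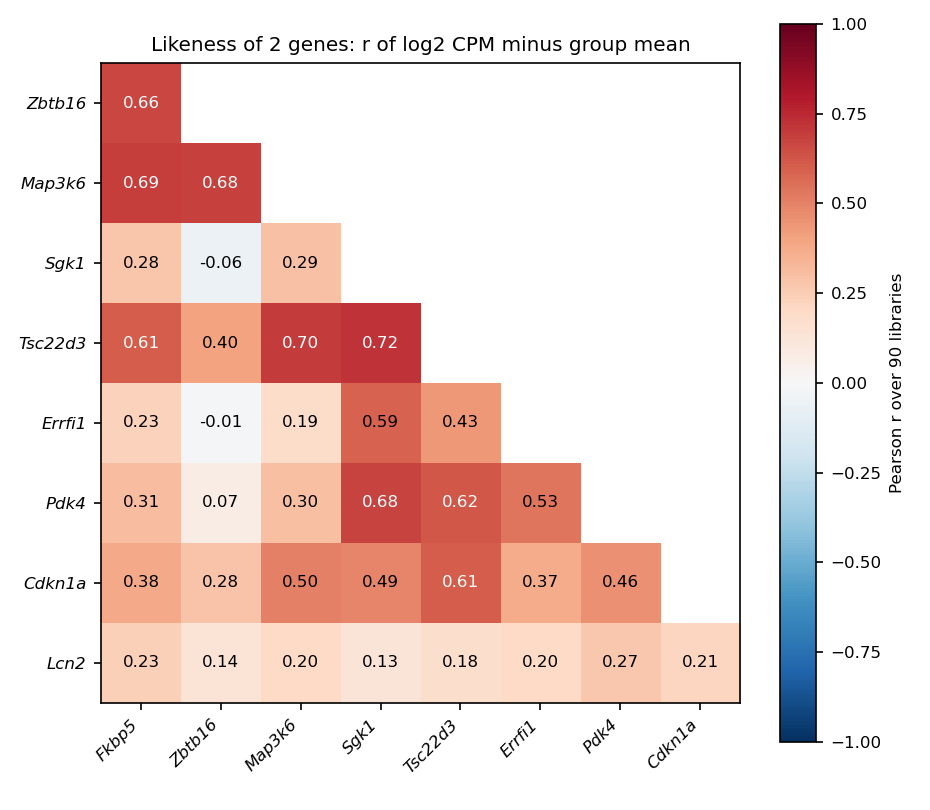
Pearson r of each pair of genes over the 90 libraries, from log2 CPM minus the group mean; red marks positive and blue negative values on a scale from -1 to 1. Fkbp5, Zbtb16 and Map3k6 form a block of values from 0.66 to 0.69, and Sgk1 against Zbtb16 is -0.06.

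Markers of cell types moved with some of the genes between libraries of a group. Sgk1 had r of 0.56 with the summed oligodendrocyte markers and 0.55 with the striatal markers over the 90 libraries. Zbtb16 had r of -0.50 with the microglial and -0.35 with the oligodendrocyte markers. For Fkbp5 every marker list lay between -0.29 and 0.25. The log2 number of gene reads had r from -0.27 (Zbtb16) to 0.22 (Errfi1) with the 9 genes, and the share of reads without a feature had r from -0.34 (Errfi1) to 0.32 (Zbtb16). Lcn2 had r of 0.40 with the neutrophil list, of whose 4 genes 1 was above 1 CPM and whose sum ran from 0.022 to 3.10 CPM. The part of cell composition in the levels of these genes was not tested.

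The other genes of the pathway give the setting. A list of 24 further glucocorticoid-responsive genes, among them Per1, Dusp1, Klf9, Klf15, Hif3a and Plin4, had 0 genes called between intruder and control in all 9 comparisons. In the controls of cortex, time cannot be told apart from the library index. Between 120 and 60 min there, 5 of the 24 rose and 2 fell by edgeR, where 8.84% of all genes rose and 7.03% fell. Those that rose were Plin4 (1.22 ± 0.35, a lipid droplet coat protein), Hif3a (0.69 ± 0.22), Il1r1 (0.54 ± 0.13, the receptor of interleukin-1), Klf9 (0.42 ± 0.12) and Mertk (0.34 ± 0.11), and those that fell were Ddit4 (-0.41 ± 0.12, an inhibitor of mTOR signalling) and the metallothionein Mt1 (-0.25 ± 0.07). The median of the 24 was 0.02, that of the 9 genes -0.02 and that of all genes -0.01. In the intruder libraries of cortex Klf9 rose (0.35 ± 0.12) and 6 genes fell, namely Nfkbia, Ddit4, Mt1, Mt2, Cebpd and Rhob, where 12.9% of all genes rose and 10% fell. With the library index as a term all of these calls were lost, as 0 of all genes were called. In that comparison the median of the 24 was -0.03, that of the 9 genes 0.14 and that of all genes -0.004.

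A list of 12 genes of the receptor, its chaperones and steroid handling had 1 gene called between intruder and control. This was Abcb1a, the efflux pump of the blood-brain barrier that also limits glucocorticoid entry, in hypothalamus at 120 min (-0.77 ± 0.12, adjusted p of 0.00177 by edgeR). The call was lost with the 2 groups fitted alone, where 0 of all genes were called. Abcb1a is also 1 of the 10 endothelial markers, whose sum was lower in the same libraries, as given above for Fkbp5. Fkbp4, a co-chaperone related to Fkbp5, had log2 fold changes of 0.20 ± 0.07 in amygdala, 0.17 ± 0.06 in cortex and 0.26 ± 0.07 in hypothalamus at 120 min, and Hsp90aa1, a subunit of Hsp90, had 0.17, 0.17 and 0.25. At 120 min 7, 6 and 7 of the 12 genes had an unadjusted p below 0.05 by edgeR in amygdala, cortex and hypothalamus. Of all genes, 15.1, 5.34 and 11.5% had one. Above 0 were 10, 8 and 8 of the 12, where 50.2, 48.9 and 51.0% of all genes were. The 12 genes share their libraries, so these are not 12 separate observations. Apart from Abcb1a none passed adjustment, with 0.123 as the smallest adjusted p by edgeR (Fkbp4 in hypothalamus). The values of Fkbp5 in the same comparisons, given above, were at or below 0, and its sign in amygdala turned in 5 of 18 alternatives.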

How the data were processed

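Messenger RNA of 3 brain regions was sequenced from stranded libraries, and the deposited table holds raw read counts per mouse Ensembl gene for 90 libraries, as whole numbers, per the file headers. The submitters' processing notes name CASAVA 1.8.2, TopHat2 2.0.8, HTSeq 0.6.1, edgeR 3.2.4, R 3.0.0 and build NCBIM37 without their roles; whether counting used strand is not given in the sources used here. Symbols (for 32919 identifiers) came from GENCODE M21 by identifier, and no coordinates were taken from another build for the counted genes. The 5 rows that name no gene were left out of library sizes; reads without a feature were 8.63 to 14.46% of all reads in the table.

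Each region was fitted with edgeR 4.0.16 (R 4.3.3, limma 3.58.1) by the quasi-likelihood test over its 6 groups of time and condition, with TMM scaling, filterByExpr and Benjamini-Hochberg adjustment over 17277 genes in amygdala, 17091 in cortex and 17676 in hypothalamus; called means an adjusted p below 0.05. The 120 against 60 min tests were added after the tags in the column names were seen. Alternatives were DESeq2 1.42.0, limma's voom, other scalings, no filter, blocks for replicate number and library index, and leaving out each library. Correlations between regions used log2(CPM + 0.5) minus the group mean, with 100000 permutations of animals within their group and adjustment over all genes and region pairs instead of over the 9 genes alone. The fits and permutations were tested on simulated counts and values.

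The genes, lists and tests were chosen with earlier results of these data known. All 9 genes are named, and others only from the 2 lists, the likeness rule or the region and cell type markers. The labels name separate animals as replicates, and with 183 pairs of libraries of a group compared, the lowest chi-square per degree of freedom was 4.19, so none agreed within sampling noise. Same-numbered libraries of control and intruder groups were not treated as pairs, since r was above 0.1 throughout in 0 of 9 sets. Whether they shared a day of dissection was not tested. Where a 6-library group is given by its lowest, median and highest value, the others lie between them.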

Additional observations from a re-analysis of the deposited data

Results flagged for a closer look

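Within groups of 4 to 10 libraries, a library was singled out where its gap to the nearest other value was a larger share of the group's range than Dixon's 95% critical value. Over the 9 genes 153 groups were tested and 7 values were singled out, each in another library, and chance alone singles out about 1 group in 20. Fkbp5 was high in amygdala of intruder animal 1 of 30 min (64.8 CPM, against 47.3 to 50.8 CPM in the others) and of control animal 2 of 60 min (69.7 CPM, against 52.5 to 57.1 CPM). Zbtb16 was high in hypothalamus of intruder animal 1 of 30 min (24.4 CPM, against 9.45 to 13.0 CPM), the same animal as for Fkbp5. Pdk4 was high in amygdala of control animal 6 of 60 min (13.0 CPM, against 10.4 to 11.1 CPM). Cdkn1a was low in hypothalamus of intruder animal 2 of 120 min (12.3 CPM, against 20.4 to 23.1 CPM). Lcn2 was low in cortex of intruder animal 1 of 30 min (0.0848 CPM, against 0.24 to 0.288 CPM) and high in hypothalamus of intruder animal 3 of 30 min (0.227 CPM, against 0.0184 to 0.069 CPM), at few reads.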

How the results depend on the processing

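Of 198 counts of called genes among the 9 under other settings, 189 lay within 1.5 times the reported count, as did 401 of 412 counts with 1 library left out, and no called difference changed sign. DESeq2 called 1 gene for intruder against control in amygdala at 120 min, 2 and 3 over time in controls of amygdala and hypothalamus, and 1 for 120 against 60 min in hypothalamus controls, where edgeR called 0. The replicate numbers were not treated as pairs (r of same-numbered libraries -0.62 to 0.66, above 0.1 throughout in 0 of 9 sets). The replicate block gave 1 call over time in controls of amygdala, 1 in hypothalamus and 1 for 120 against 60 min in hypothalamus controls. It left every other count within 1.5 times. Calls over all genes in the same comparisons ran over the settings from 0 to 196, from 23 to 162 and from 6 to 40. The library index as a block gave 0 calls over time in amygdala intruder libraries and 0 for 120 against 60 min in cortex intruder libraries; it could not be estimated for intruder against control at 120 min or the interaction with time in cortex, nor for the other time comparisons within cortex and all of those within hypothalamus. DESeq2 gave no adjusted p in 8 single-gene tests over time. The causes of these changes were not tested.

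With 1 library left out, calls ranged over 0 to 1 for intruder against control in amygdala at 120 min, 2 to 4 over time in amygdala intruder libraries, 1 to 3 in those of hypothalamus, 0 to 1 in hypothalamus controls (Fkbp5, without control replicate 6 of 120 min), 1 to 3 for 120 against 60 min in cortex controls and 1 to 2 in cortex intruder libraries (2 without intruder replicate 3 of 120 min, with Lcn2 added). Of all genes, the calls for intruder against control at 120 min, 93 in amygdala and 34 in hypothalamus, ran with 1 library left out from 6 (control replicate 1) to 218 (control replicate 6) in amygdala and from 19 (control replicate 2 or 3) to 53 (intruder replicate 2) in hypothalamus. They were 409 and 100 with DESeq2 and 0 and 0 with the 2 groups fitted alone. Calls over all genes for the change with time also moved with 1 library left out. In intruder libraries the 2225 calls in amygdala became 1173 to 2481 and the 263 in hypothalamus 135 to 334. In controls the 40 in amygdala became 16 to 133 and the 32 in hypothalamus 9 to 31.

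Of 108 values of the correlations between regions under other settings, 26 lost their call and 2 uncalled values changed sign. Among intruder animals alone the called relations (amygdala-cortex, amygdala-hypothalamus, cortex-hypothalamus) lost their call at r of 0.91, 0.84 and 0.93 for Fkbp5, 0.65, 0.79 and 0.84 for Tsc22d3, 0.67, 0.79 and 0.76 for Map3k6, and at 0.87 for Zbtb16, 0.71 for Sgk1 and 0.60 for Errfi1. Among controls alone these were 0.86, 0.69 and 0.87, then 0.61, 0.69 and 0.81, then 0.77, 0.52 and 0.66, and 0.93, 0.67 and 0.65. By ranks, Errfi1 in cortex-hypothalamus (0.62) and Tsc22d3 in amygdala-cortex (0.56) lost theirs. Among intruder animals alone the uncalled amygdala-hypothalamus values of Errfi1 (-0.030) and Lcn2 (-0.072) changed sign. Depth limits mainly Lcn2.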
